A study of Mus musculus with 3 samples.

Results

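The genes that carry a cell from G1 into S phase and copy its DNA were followed across the MC3T3-E1 cell experiment. The set holds 48 genes out of 15287 listed in the expression table. They were chosen by name for their role in G1/S control or DNA replication. The rule uses no measured value, but earlier results of these data were known when it was set. MC3T3-E1 is a wild-type mouse preosteoblast line derived from calvaria, the flat bone of the skull. The 3 RNA-seq libraries were CTL, cells with no special treatment, Ti, cells given titanium particles at 10 μg/cm2 for 24 h, and Ti+Se-Met, cells given the same dose of particles together with 5 μM seleno-methionine, an amino acid that carries selenium, for 24 h. Each condition was 1 library of 1 cell line, so no difference given here has a replicate check or a test. The design addresses what titanium wear particles, which gather around loosened implants, do to bone-forming cells, and what seleno-methionine does to that response.

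In G1, D-type cyclins activate Cdk4 and Cdk6, which phosphorylate the retinoblastoma protein Rb1 and release E2F transcription factors. Cyclin E with Cdk2 then drives entry into S phase, and the inhibitor Cdkn1b (p27) restrains it. Origins of replication are licensed when ORC, Cdc6 and Cdt1 load the MCM2-7 helicase, which Cdc45, GINS and Mcm10 switch on as replication starts. Preosteoblasts proliferate before they mature, and E2F target genes are transcribed as cells approach S phase.

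E2F proteins bind short sequences that open with a run of T and end in CGC. Because many of the genes in the set are known E2F targets, the 250 bases before each RefSeq transcription start (build GRCm38.p6) were searched on both strands for TTTCCCGC, TTTCGCGC, TTTGCCGC and TTTGGCGC, and for CCAAT, the letters of the CCAAT box. Promoters were found for 38 of the 48 genes. Ccnd1, Ccnd2, Ccne2, Gins1, Gins2, Gmnn, Mcm4, Pole, Rb1 and Rfc2 had none in the table used. The E2F letters were present in 11 of the 38 genes (28.9%), against 4.12% of the 8976 genes with a promoter that passed the filter on low values and 2.16% of all 27025 genes with a promoter. A looser form of 7 letters, without the first T, was present in 16 of the 38 genes (42.1%), against 16.6% and 9.01%, a smaller contrast. CCAAT was present in 25 of the 38 genes (65.8%), against 41.6% and 37.5%. The 11 genes were Cdc25a, Cdc6, Cdk2, E2f3, Mcm5, Mcm6, Mcm7, Orc1, Pola1, Rfc3 and Uhrf1. The 8 stretches shown are those that overlap no annotated exon, so that the letters can be read in their setting. They are printed 5′ to 3′ on the strand of the gene, with the E2F letters, in either orientation, in capitals. Cdc25a lies at chr9:109875476-109875555 (plus strand) and Cdk2 at chr10:128705148-128705227 (minus strand). E2f3 lies at chr13:29986064-29986143 (minus) and Mcm5 at chr8:75109322-75109401 (plus). Mcm6 lies at chr1:128359741-128359820 (minus) and Orc1 at chr4:108579374-108579453 (plus). Pola1 lies at chrX:93632250-93632329 (minus) and Uhrf1 at chr17:56304092-56304171 (plus). The capitals of Mcm5 cover 2 overlapping matches, and those of Mcm6 cover 3 matches, of which the 2 farthest from the start overlap. For E2f3 and Uhrf1 the table lists 2 starts, and the stretch belongs to the one whose promoter holds the letters.
Cdc25a: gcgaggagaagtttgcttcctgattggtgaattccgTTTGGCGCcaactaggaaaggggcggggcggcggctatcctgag
Cdk2: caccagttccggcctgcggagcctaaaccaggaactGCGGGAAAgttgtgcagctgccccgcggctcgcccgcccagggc
E2f3: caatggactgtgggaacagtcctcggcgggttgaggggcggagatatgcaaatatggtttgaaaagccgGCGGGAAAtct
Mcm5: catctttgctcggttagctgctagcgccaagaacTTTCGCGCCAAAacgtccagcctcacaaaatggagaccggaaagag
Mcm6: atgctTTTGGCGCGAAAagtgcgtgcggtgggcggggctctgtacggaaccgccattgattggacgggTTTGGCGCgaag
Orc1: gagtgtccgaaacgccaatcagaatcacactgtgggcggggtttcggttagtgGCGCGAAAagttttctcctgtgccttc
Pola1: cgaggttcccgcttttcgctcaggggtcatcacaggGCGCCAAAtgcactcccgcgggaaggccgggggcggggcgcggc
Uhrf1: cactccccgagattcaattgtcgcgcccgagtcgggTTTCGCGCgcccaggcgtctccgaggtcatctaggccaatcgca

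A match of letters is a description of the window, not a binding site. The 11 genes with the letters had a median log2 ratio of 0.77 between Ti and CTL, ranging from 0.14 (E2f3) to 1.48 (Mcm7). The 26 genes of the set whose promoters lacked them and that passed the filter had a median of 0.72, ranging from -0.69 (Cdkn1b) to 2.30 (Cdt1). The range of the first group lay within that of the second. With the 7-letter form the medians were 0.79 in the 16 genes that had it and 0.70 in the 21 without.

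Values are FPKM, fragment numbers divided by transcript length and by the library's own total, which can be compared between genes because they are divided by length. The depth, estimated from the smallest steps between values, was 14350000 fragments in CTL, 14700000 with Ti and 10350000 with Ti+Se-Met, so low values were least precise in the last. Of the 11 osteoblast markers, 8 reached an FPKM of 1 in a library. They include Col1a2, a chain of type I collagen, at 2688, 999 and 1257 FPKM in the order CTL, Ti, Ti+Se-Met, and Runx2, the transcription factor of the osteoblast lineage, at 26.8, 17.1 and 23.0. Sp7, a later osteoblast factor, reached at most 0.63 and Ibsp, a matrix protein of mineralising bone, at most 0.04, being listed at 0 in CTL and Ti+Se-Met. Col1a1, the other chain of type I collagen, had 1333, 354 and 482 FPKM, while Spp1 (osteopontin), a matrix protein, ran the other way at 1261, 3706 and 4659. The summed osteoblast markers were 5978, 5550 and 6944 FPKM, a total in which the higher Spp1 offsets the lower collagens, and 5 of them were at least 1.5-fold lower and 1 at least 1.5-fold higher in Ti than in CTL. Of 7 macrophage markers, Ptprc, Adgre1 and Itgam were not listed, Csf1r was at most 0.1, and the sum was 32.5, 31.8 and 27.8. Within it Lyz2 was lower with particles, at 26.7, 14.8 and 12.4, and Cd14 higher, at 5.7, 16.6 and 14.8. The listed markers of endothelium, epithelium, adipocytes and skeletal muscle stayed below 1 FPKM. Among the chondrocyte markers Sox9 reached 24.9, 36.3 and 39.3 FPKM, while Col2a1 was at most 0.72. The part of any of these in the results was not tested.

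Of the 48 genes, 47 reached 1 FPKM in some library, which was the filter on low values. The exception was E2f2, an activating E2F, at 0.24, 0.48 and 0.44 FPKM. Levels spanned a wide range. Cdk4, with 299, 418 and 395 FPKM in the same order, and Ccnd1, with 250.25, 263 and 265 FPKM, were the most abundant in every library, and E2f2 and Orc1 the least. The plot of levels shows this spread, with the machinery of replication shifted upward in both libraries with particles and the D-type cyclins within 1.5-fold.

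**Figure D1:**
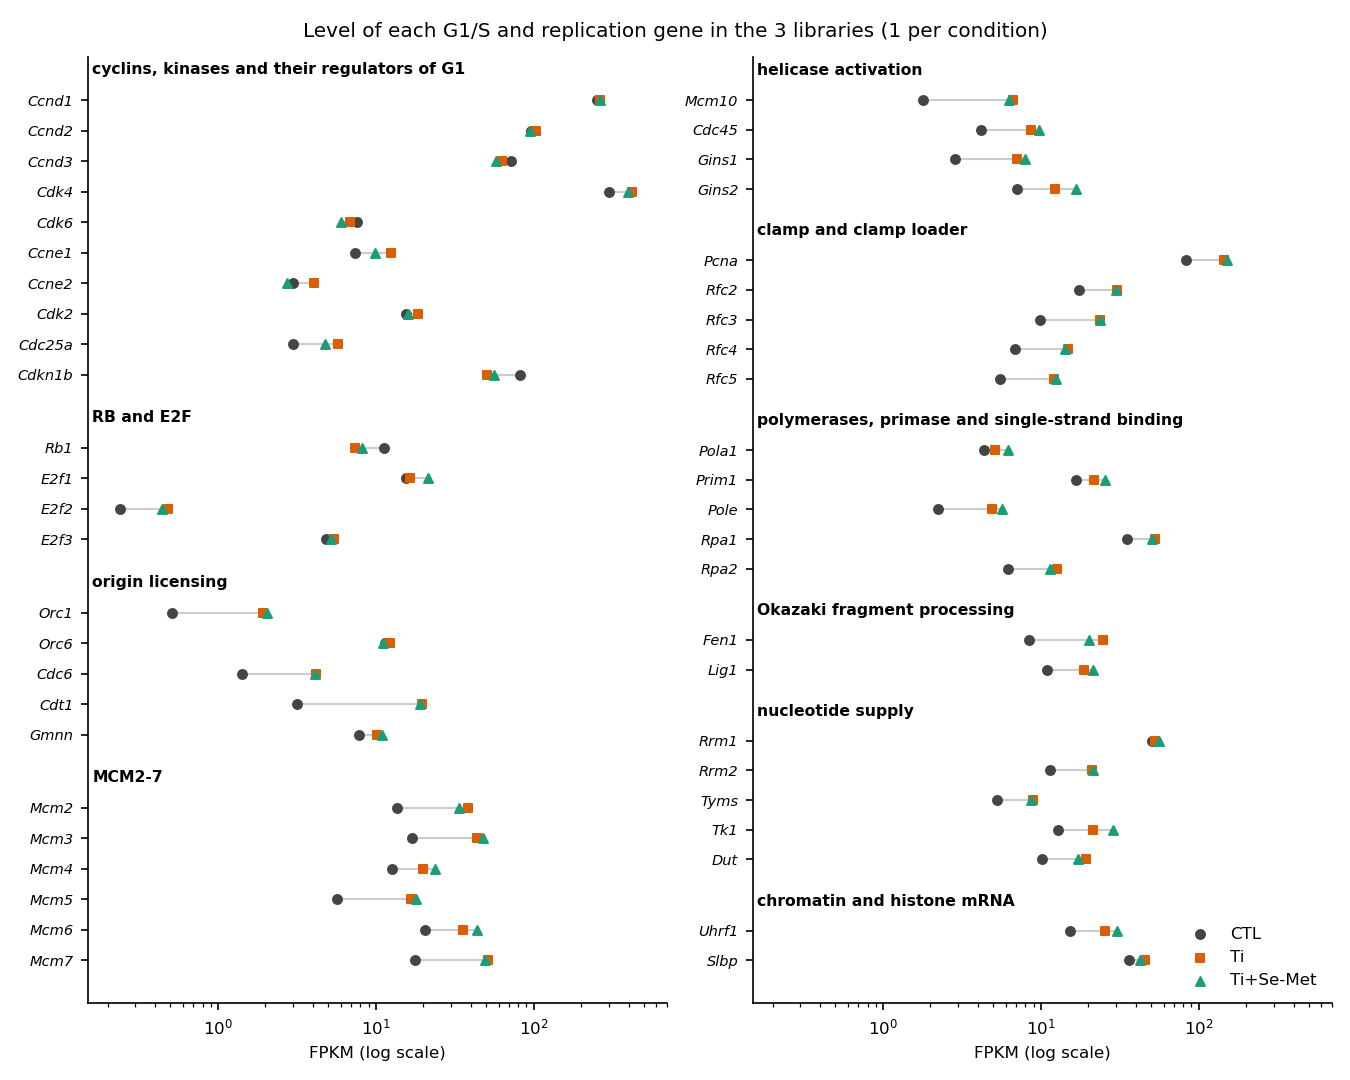
FPKM of each of the 48 genes (log axis), by role, with a circle for the CTL library, a square for Ti and a triangle for Ti+Se-Met. Cdt1 stands out with 3.16 FPKM in CTL against 19.5 and 19.1 in Ti and Ti+Se-Met, and Cdkn1b is the reverse, with 82.5 FPKM in CTL against 50.8 and 56.5.

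The Ti library had higher FPKM of most replication genes than the CTL library. Differences are given as log2 ratios of FPKM + 1, and folds as plain ratios of FPKM with a 95% exact conditional binomial interval on the estimated fragments, which covers counting error only. Of the 47 genes, 30 (63.8%) were at least 1.5-fold higher in Ti than in CTL on the FPKM + 1 scale, against 15.5% of all 11137 genes that passed the filter. At least 2-fold higher were 12 (25.5%), against 3.63%. In the other direction, 1 gene, Cdkn1b, was at least 1.5-fold lower, where 11.3% of all genes were, and 0 were 2-fold lower, where 3.64% were. The median log2 ratio was 0.71, ranging from -0.69 to 2.30, beside 0.08 over all genes. The interval of the fold lay above 1 for 39 of the 47 genes (42.9% of all genes with a length), below 1 for 4 (32.0%), namely Ccnd3, Cdk6, Rb1 and Cdkn1b, and held 1 for Gmnn, Orc6, E2f1 and E2f3. In bulk RNA, a larger share of cells in S phase and more of these mRNAs per cell cannot be told apart.

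The FPKM values of the libraries summed to different totals, and scaling them to the same sum moved the median of all genes from 0.08 to -0.13. The split of all genes at 2-fold then went from 404 higher and 405 lower to 185 higher and 674 lower, and was 339 and 433 under median-of-ratios scaling and 242 and 535 under upper-quartile scaling. The median of the set lay 0.63 above that of all genes under each of these 4 scalings. Each scaling divides a library by a single factor and shifts all genes almost alike, so this gap could hardly change. On the scale of the same sum, 7 of the 47 genes were at least 2-fold higher in Ti, beside the 185 of all 11137 genes. At least 1.5-fold higher were 19 of the 47, with no count of all genes made at that threshold on that scale. Past 1.5-fold in Ti as deposited but not with the same sum were Ccne1, Mcm4, Mcm6, Gins2, Pcna, Rfc2, Rpa1, Lig1, Tyms, Tk1 and Uhrf1. The statements by role that follow are for the values as deposited. The sign of the difference was the same under all 4 scalings for 42 of the 48 genes, and turned for Ccnd1, Ccnd2, E2f1, E2f3, Orc6 and Rrm1.

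**Figure D2:**
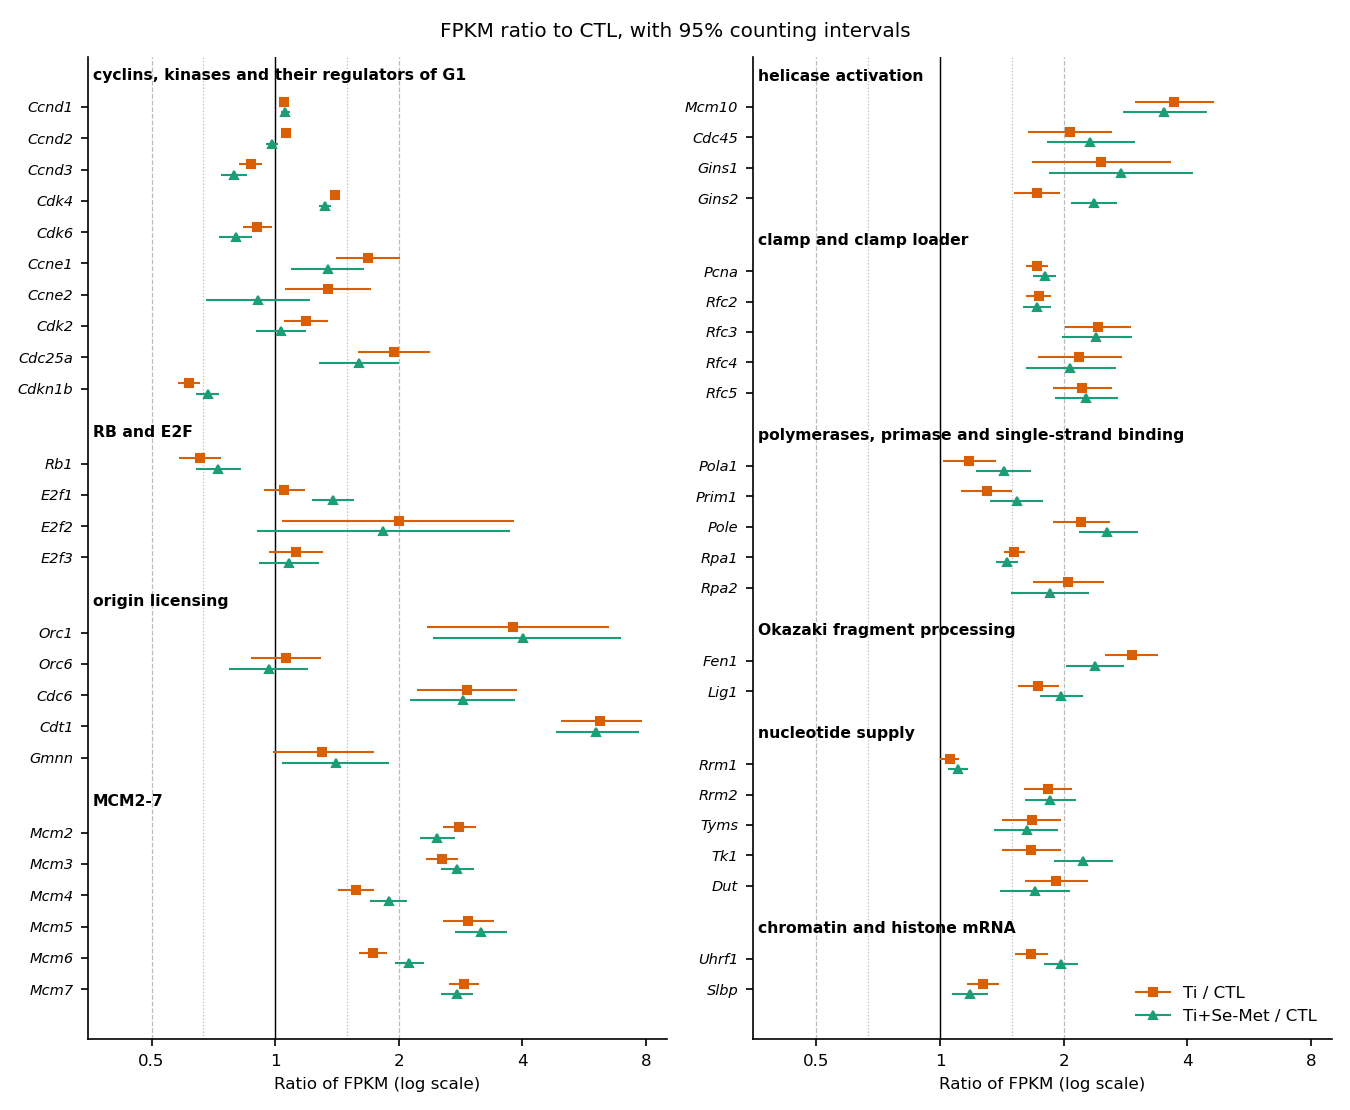
Ratio of FPKM to CTL (log axis) for each gene of the set, by role, with squares for Ti, triangles for Ti+Se-Met, bars for 95% counting intervals, and dotted and dashed lines at 1.5-fold and 2-fold. Both comparisons use the CTL library. The MCM2-7 genes lie between 1.57 and 2.96 in Ti, Cdt1 lies highest at 6.17 and Cdkn1b lowest at 0.616.

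The G1 cyclins, kinases and their regulators had a median log2 ratio of 0.16 over 10 genes, and the 3 measured genes of RB and E2F one of 0.07, the lowest medians of the roles. Ccnd1, Ccnd2 and Ccnd3, the D-type cyclins that sense growth signals, had folds of 1.05, 1.06 and 0.873 between Ti and CTL. Of their kinases, Cdk4 stood at 1.40-fold and Cdk6 at 0.905-fold (0.834 to 0.982). Of the 48 genes, 21 share exonic bases with another gene, and 4 of them share at least 20%. These 4 are Cdk4, Ccnd1, Gins2 and Fen1, and the highest of the others is Rfc2 at 19.1%. Cdk4 shares 31.2% and Ccnd1 21.9% of their exonic bases with an antisense gene. Whether strand was used in counting is not given in the sources used here, and without it the reads of both partners cannot be told apart. Past 1.5-fold were Ccne1, Cdc25a and Cdkn1b.

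Ccne1, the cyclin that partners Cdk2, had 7.4 FPKM in CTL, 12.4 with Ti and 9.94 with Ti+Se-Met. Both libraries with particles were above CTL, Ti more so, and the fold was 1.68 (1.41 to 2.02) with Ti and 1.34 (1.10 to 1.65) with Ti+Se-Met. Cdc25a, the phosphatase that removes inhibitory phosphates from Cdk2, had 2.98, 5.79 and 4.78 FPKM in the same order. Its fold was 1.94 (1.59 to 2.38) with Ti and 1.604 (1.28 to 2.01) with Ti+Se-Met. Ccne2 and Cdk2 stayed within 1.5-fold, with folds of 1.35 (1.06 to 1.71) and 1.19 (1.05 to 1.34) in Ti.

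Cdkn1b, the inhibitor of cyclin E and Cdk2, ran the other way, with 82.5 FPKM in CTL, 50.8 with Ti and 56.5 with Ti+Se-Met. Its fold was 0.616 (0.580 to 0.656) with Ti and 0.685 (0.641 to 0.732) with Ti+Se-Met. The ratio of Ccne1 to Cdkn1b FPKM was 0.0897 in CTL, 0.245 with Ti and 0.176 with Ti+Se-Met, so it was highest in Ti and lowest in CTL. Rb1, the restraint on E2F, was also lower, with 11.2 FPKM in CTL, 7.35 with Ti and 8.16 with Ti+Se-Met. The fold was 0.656 (0.583 to 0.737) in Ti, but its log2 ratio of -0.55 was just inside the 1.5-fold threshold. Cdkn1b and Rb1 were lower in Ti under all 4 scalings.

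Of the E2F genes of the set that passed the filter, both had intervals that held 1 between Ti and CTL. E2f1, an activator of S-phase genes, had 15.6 FPKM in CTL, 16.4 with Ti and 21.5 with Ti+Se-Met, with folds of 1.05 (0.938 to 1.18) and 1.38 (1.23 to 1.55) over CTL. E2f3, also an activator, had 4.83, 5.42 and 5.23 FPKM, and both intervals of its fold over CTL held 1. For E2f1 the library apart from the others was Ti+Se-Met.

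Origin licensing held the gene with the largest ratio of the set. Cdt1, which brings the helicase to the origin, had 3.16 FPKM in CTL, 19.5 with Ti and 19.1 with Ti+Se-Met. CTL was far below both others, with a fold of 6.17 (4.97 to 7.81) with Ti and 6.04 (4.83 to 7.70) with Ti+Se-Met. Gmnn, geminin, the protein that inhibits Cdt1, had 7.82, 10.2 and 11.0 FPKM, and its fold of 1.30 (0.989 to 1.74) in Ti held 1. The ratio of Cdt1 to Gmnn was therefore 0.404 in CTL, 1.91 with Ti and 1.74 with Ti+Se-Met, below 1 without particles and above 1 with them.

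Cdc6, the other loading factor, had 1.43 FPKM in CTL, 4.20 with Ti and 4.10 with Ti+Se-Met. The folds were 2.94 (2.22 to 3.87) and 2.87 (2.13 to 3.84). Orc1, the ORC subunit whose level varies over the cycle, had 0.51, 1.94 and 2.05 FPKM, about 21, 82 and 61 fragments. Both libraries with particles lay well above CTL, and the folds were 3.804 (2.34 to 6.48) and 4.02 (2.42 to 6.96), wide because of the few fragments. On the FPKM + 1 scale Orc1 was just under 2-fold in Ti (0.96) and just over it in Ti+Se-Met (1.01). Orc6 had 11.5, 12.3 and 11.1 FPKM, with folds of 1.06 (0.874 to 1.29) and 0.965 (0.771 to 1.20). The ORC genes, Orc1 to Orc6, summed to 72.3, 75.2 and 63.8 FPKM, with Orc3 the highest in each library, so the summed level of the complex did not follow Orc1.

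All 6 genes of the MCM2-7 helicase were at least 1.5-fold higher in Ti than in CTL and 4 were at least 2-fold higher, with a median log2 ratio of 1.36. Mcm2 had 13.7 FPKM in CTL, 38.4 with Ti and 33.9 with Ti+Se-Met. Mcm3 had 17.1, 43.5 and 47.4 FPKM. Mcm4 had 12.6, 19.9 and 23.8 FPKM. In all 3 genes CTL was lowest, and Mcm2 peaked in Ti while Mcm3 and Mcm4 peaked in Ti+Se-Met. Mcm5 had 5.67, 16.8 and 17.96 FPKM. Mcm6 had 20.6, 35.7 and 43.8 FPKM. Mcm7 had 17.7, 51.1 and 49.0 FPKM. CTL was again lowest for each of these genes.

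The folds over CTL in Ti were 2.80 (2.56 to 3.08) for Mcm2, 2.55 (2.33 to 2.78) for Mcm3 and 1.57 (1.42 to 1.74) for Mcm4. They were 2.96 (2.57 to 3.41) for Mcm5, 1.73 (1.602 to 1.87) for Mcm6 and 2.88 (2.65 to 3.14) for Mcm7. Mcm4 and Mcm6 thus had the smallest folds of the ring, and their intervals lay below those of the other 4 genes. In Ti+Se-Met the folds ran from 1.89 (1.70 to 2.1) for Mcm4 to 3.17 (2.74 to 3.68) for Mcm5. The protein ring holds 1 copy of each subunit, but the mRNAs were unequal, with the highest 3.64 times the lowest in CTL, 3.05 times in Ti and 2.73 times in Ti+Se-Met. Mcm5 was the lowest in every library, and the highest was Mcm6 in CTL and Mcm7 in the other libraries. The summed level was 87.4, 205 and 216 FPKM, 2.35-fold higher in Ti and 2.47-fold higher in Ti+Se-Met than in CTL.

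**Figure D3:**
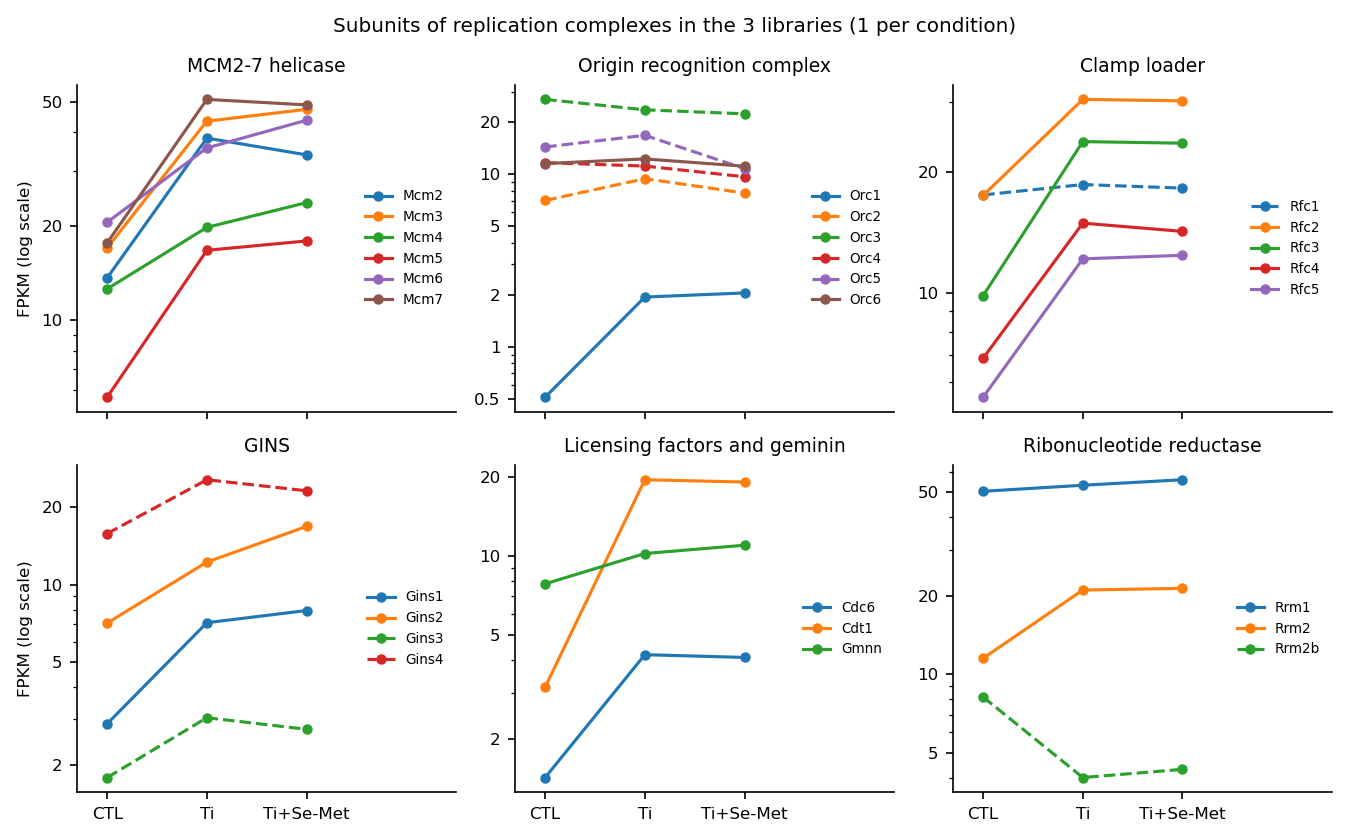
FPKM (log axis, scaled to each panel) of the subunits of MCM2-7, ORC, the clamp loader, GINS and ribonucleotide reductase and of the licensing factors with geminin, 1 library per condition, with dashed lines for genes outside the set. Cdt1 crosses Gmnn, from 3.16 against 7.82 FPKM in CTL to 19.5 against 10.2 in Ti, while Orc1, lowest of the ORC genes, goes from 0.51 to 1.94 FPKM.

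The factors that activate the helicase were all at least 1.5-fold higher. Mcm10, which is needed to start unwinding, had 1.80 FPKM in CTL, 6.67 with Ti and 6.33 with Ti+Se-Met, with folds of 3.71 (2.98 to 4.65) and 3.52 (2.80 to 4.46). Cdc45, a part of the active helicase, had 4.20, 8.69 and 9.72 FPKM, with folds of 2.07 (1.64 to 2.63) and 2.31 (1.82 to 2.98). Both were lowest in CTL and close between the libraries with particles. Gins1, a GINS subunit, had 2.88, 7.11 and 7.93 FPKM, with folds of 2.47 (1.68 to 3.65) and 2.75 (1.84 to 4.13). Gins2 had 7.09, 12.2 and 16.8 FPKM, with folds of 1.73 (1.52 to 1.96) and 2.37 (2.09 to 2.70). It was lowest in CTL and highest in Ti+Se-Met, but 70.7% of its exonic bases are shared with the antisense gene Gse1, to which the same limit applies. The 4 GINS genes summed to 27.5, 47.9 and 50.7 FPKM.

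The sliding clamp and the 4 loader genes of the set were all past 1.5-fold. Pcna, the clamp that tethers polymerases to DNA, had 83.7 FPKM in CTL, 144 with Ti and 151 with Ti+Se-Met, with folds of 1.72 (1.62 to 1.83) and 1.80 (1.69 to 1.92). Rfc2, a loader subunit, had 17.5, 30.4 and 30.2 FPKM, with folds of 1.74 (1.62 to 1.87) and 1.72 (1.596 to 1.86). In both genes CTL was the low library. Rfc3 had 9.84, 23.9 and 23.6 FPKM, with folds of 2.43 (2.02 to 2.92) and 2.40 (1.98 to 2.93). Rfc4 had 6.87, 14.9 and 14.2 FPKM, with folds of 2.17 (1.73 to 2.77) and 2.07 (1.62 to 2.69). Rfc5 had 5.49, 12.2 and 12.4 FPKM, with folds of 2.22 (1.88 to 2.63) and 2.26 (1.90 to 2.71). The interval of Rfc2 in Ti lay below those of Rfc3 and Rfc5, and the interval of each loader gene between Ti+Se-Met and Ti held 1. Rfc1, the large subunit, which is outside the set, had 17.6, 18.6 and 18.3 FPKM, with a fold of 1.06 (0.980 to 1.15) in Ti.

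Among the polymerase and single-strand binding genes, Pole, Rpa1 and Rpa2 were past 1.5-fold in Ti. Pole, the catalytic subunit of the leading-strand polymerase epsilon, had 2.23 FPKM in CTL, 4.91 with Ti and 5.70 with Ti+Se-Met, with folds of 2.20 (1.88 to 2.59) and 2.56 (2.17 to 3.03). The 4 polymerase epsilon genes together had 54.5, 60.8 and 69.7 FPKM, and Pole was the least abundant of them in each library. Rpa1, which coats single-stranded DNA, had 35.0, 53.0 and 50.9 FPKM, with folds of 1.52 (1.43 to 1.61) and 1.46 (1.37 to 1.55). Rpa2, its partner, had 6.20, 12.7 and 11.5 FPKM, with folds of 2.05 (1.68 to 2.51) and 1.85 (1.48 to 2.30). Rpa3, the smallest RPA gene and outside the set, had 31.7, 29.8 and 33.2 FPKM, so the RPA genes were not shifted alike.

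Prim1, the primase that starts each new strand, had 16.6 FPKM in CTL, 21.6 with Ti and 25.5 with Ti+Se-Met, with folds of 1.30 (1.13 to 1.499) and 1.54 (1.32 to 1.78). Pola1, the catalytic subunit of polymerase alpha, had 4.37, 5.14 and 6.24 FPKM, with folds of 1.18 (1.01 to 1.37) and 1.43 (1.22 to 1.67). Both were highest in Ti+Se-Met. Pola2, the accessory subunit and outside the set, had 8.69, 20.2 and 17.1 FPKM, with a fold of 2.32 (2.02 to 2.68) in Ti, a larger fold than that of its catalytic partner.

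On the lagging strand, Lig1, the ligase that seals Okazaki fragments, had 10.9 FPKM in CTL, 18.9 with Ti and 21.5 with Ti+Se-Met, with folds of 1.73 (1.55 to 1.95) and 1.97 (1.75 to 2.23). Fen1, the flap nuclease, had 8.48, 24.8 and 20.3 FPKM, with folds of 2.93 (2.52 to 3.39) and 2.39 (2.03 to 2.80). CTL was lowest for both. Fen1 shares 84.1% of its exonic bases with antisense genes, so the limit on strand applies to it as well.

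Of the 5 genes of nucleotide supply, 4 were past 1.5-fold in Ti. Rrm2, the regulatory subunit of ribonucleotide reductase, whose level changes over the cycle, had 11.5 FPKM in CTL, 21.04 with Ti and 21.4 with Ti+Se-Met, with folds of 1.83 (1.601 to 2.096) and 1.86 (1.61 to 2.15). Rrm1, the large subunit, had 50.4, 53.1 and 55.8 FPKM, with folds of 1.06 (1.00 to 1.11) and 1.11 (1.05 to 1.17). The ratio of Rrm2 to Rrm1 was 0.229 in CTL, 0.396 with Ti and 0.383 with Ti+Se-Met, higher in both libraries with particles. Tyms, thymidylate synthase, had 5.31, 8.88 and 8.63 FPKM, with folds of 1.67 (1.41 to 1.97) and 1.63 (1.36 to 1.94). Dut, which keeps uracil out of DNA, had 10.1, 19.4 and 17.2 FPKM, with folds of 1.92 (1.61 to 2.29) and 1.70 (1.40 to 2.07). Tk1, the thymidine kinase of S phase, had 12.8, 21.4 and 28.5 FPKM, with folds of 1.67 (1.42 to 1.97) and 2.23 (1.89 to 2.63). The interval of Tk1 also lay above 1 between Ti+Se-Met and Ti, and that of Rrm1 did so under the 3 other scalings but not as deposited.

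Uhrf1, which helps copy DNA methylation onto new strands, had 15.4 FPKM in CTL, 25.6 with Ti and 30.2 with Ti+Se-Met, with folds of 1.67 (1.52 to 1.83) and 1.97 (1.79 to 2.17). Slbp, which binds histone mRNA, had 36.1, 45.8 and 42.6 FPKM, with folds of 1.27 (1.16 to 1.39) and 1.18 (1.07 to 1.31). Both were above CTL, and Slbp stayed within 1.5-fold.

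The Ti+Se-Met library also had higher FPKM of most replication genes than the CTL library. Of the 47 genes, 28 (59.6%) were at least 1.5-fold higher than in CTL, against 10.4% of all genes, and 17 (36.2%) at least 2-fold higher, against 2.64%. The genes at least 1.5-fold lower numbered 0, against 11.8%, and 0 were 2-fold lower, against 3.32%. The median log2 ratio was 0.79, beside 0.01 over all genes. The interval lay above 1 for 38 genes (36.0% of all genes) and below 1 for 4 (33.4%). This comparison shares its CTL library with that of Ti. On the scale of the same sum, 8 genes of the set were at least 2-fold higher, and 174 of all 11137 genes.

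Set directly against each other, Ti+Se-Met and Ti differed little over the set, as they did over all genes. At the 1.5-fold threshold 0 of 47 genes were higher and 0 lower, against 0.844% and 1.28% of all genes, and at 2-fold 0 and 0, against 0.162% and 0.0629%. The median log2 ratio was -0.01, beside -0.06 over all genes, and ranged from -0.44 (Ccne2) to 0.43 (Gins2). The interval of the fold lay above 1 for 12 genes (15.6% of all genes), below 1 for 10 (29.2%) and held 1 for 25. Those above were Cdkn1b, E2f1, Gins2, Lig1, Mcm3, Mcm4, Mcm6, Pola1, Pole, Prim1, Tk1 and Uhrf1. Those below were Ccnd2, Ccnd3, Ccne1, Ccne2, Cdc25a, Cdk2, Cdk4, Cdk6, Fen1 and Mcm2, of which 8 belong to the 10 G1 cyclins, kinases and their regulators. These lower folds were small, and several depended on the scaling. The counts above and below 1 were 12 and 10 as deposited and 15 and 7 with the same sum. They were 17 and 4 under median-of-ratios and 17 and 3 under upper-quartile scaling, the last 3 being Ccne2, Fen1 and Mcm2. The scalings move all genes too, whose median went from -0.06 as deposited to -0.03 with the same sum. Intervals of all genes were counted only as deposited, so the other counts cannot be read as particular to the set.

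Among the genes farthest apart, Ccne2, the second cyclin E, had 4.05 FPKM with Ti and 2.73 with Ti+Se-Met, beside 3.01 in CTL. The fold of Ti+Se-Met over Ti was 0.674 (0.512 to 0.888). Ccne1 had a fold of 0.799 (0.665 to 0.957) and Cdc25a one of 0.826 (0.680 to 0.999), whose upper bound was just under 1. On the other side were Gins2, at 1.38 (1.23 to 1.54), Tk1, at 1.34 (1.16 to 1.54), and E2f1, at 1.31 (1.17 to 1.47). Mcm6 and Mcm4 followed with 1.23 (1.15 to 1.31) and 1.20 (1.10 to 1.32). The 5 licensing genes and the 4 loader genes had intervals that held 1 under all 4 scalings. That of Pcna held 1 as deposited and lay above 1 under the other 3.

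**Figure D4:**
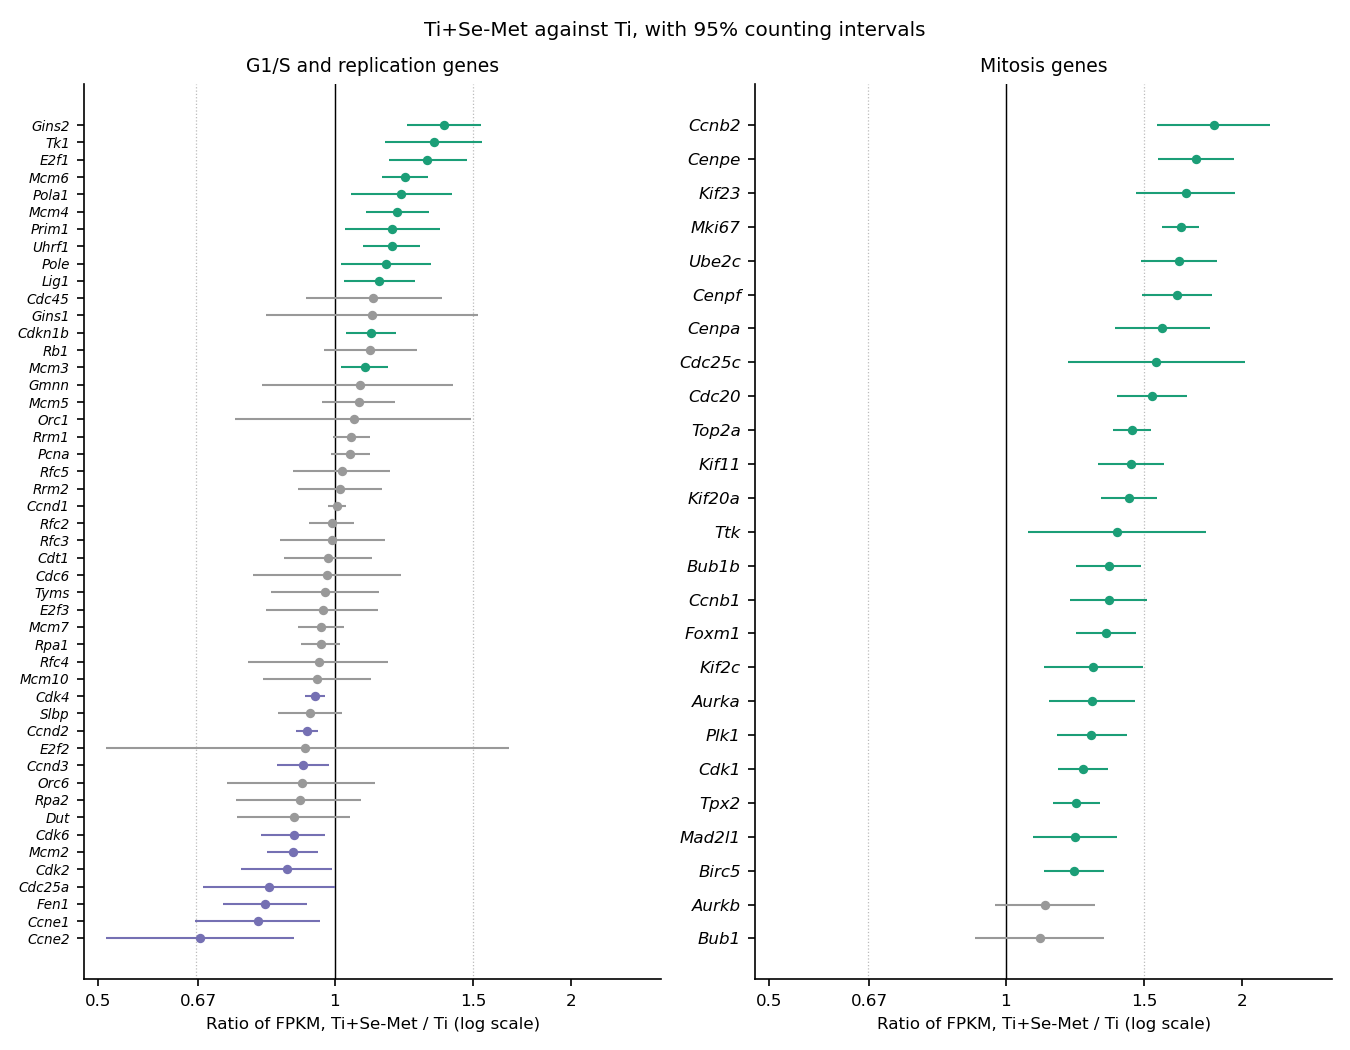
Ratio of FPKM in Ti+Se-Met to Ti (log axis) for the 48 genes of the set at left and 25 mitosis genes at right, with bars for 95% counting intervals, coloured where they lie above or below 1 and grey where they hold it. The set runs from 0.674 for Ccne2 to 1.38 for Gins2 on both sides of 1, while every mitosis gene lies above 1.

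How much of the Ti difference was gone in Ti+Se-Met was expressed as a share of the log2 ratio between Ti and CTL, with 0% for a level equal to Ti and 100% for a level equal to CTL. Over the 31 genes of the set at least 1.5-fold from CTL in Ti, the median share was 1.07%, and 16 of them (51.6%) lay nearer to CTL in Ti+Se-Met than in Ti. Over all 2989 genes at least 1.5-fold from CTL in Ti, the median was 19.1%, and 2280 (76.3%) lay nearer to CTL. The share uses the Ti library in both differences. Within the set it was largest for Ccne1 (43.8%), Cdc25a (30.1%) and Cdkn1b (21.7%), which all act on Cdk2. It was most negative for Gins2 (-60.7%), Tk1 (-57.7%) and Mcm4 (-41.0%), which stood farther from CTL in Ti+Se-Met than in Ti.

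The other genes of the same processes, taken from lists of textbook members, were placed beside the set. Of 25 other G1/S regulators, Cdkn1c, Cdkn2a and Cdkn2b were not listed. Of the 22 measured, 5 (22.7%, against 15.5% of all genes) were at least 1.5-fold higher in Ti and 0 lower (against 11.3%), with a median of 0.24. Cks1b, a partner of Cdk and of the ligase that degrades p27, had 44.8 FPKM in CTL, 78.0 with Ti and 98.3 with Ti+Se-Met. Cdkn1a (p21), a Cdk inhibitor like p27, had 154, 253 and 214 FPKM, with a fold of 1.65 (1.57 to 1.72) in Ti. Cdkn1a was thus higher with particles, where Cdkn1b was lower. E2f4, an E2F that acts mainly in repression, had 12.4, 19.5 and 21.2 FPKM.

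Of 41 other replication factors, 40 passed the filter. At least 1.5-fold higher in Ti were 17 (42.5%, against 15.5% of all genes) and 0 were lower (against 11.3%), with a median of 0.50. Among them were chaperones that place histones on new DNA. Chaf1b, a subunit of chromatin assembly factor, had 4.03 FPKM in CTL, 14.6 with Ti and 12.5 with Ti+Se-Met. Asf1b had 2.36, 7.19 and 6.63 FPKM, and Chaf1a had 8.57, 21.4 and 20.7. All were lowest in CTL. Of 30 other genes of nucleotide synthesis, 14 (46.7%, against 15.5% of all genes) were at least 1.5-fold higher in Ti and 1 lower (against 11.3%), with a median of 0.52. Shmt2, a mitochondrial enzyme of one-carbon supply, had 38.5, 126 and 99.6 FPKM, Atic, of purine synthesis, 36.6, 86.5 and 70.1, and Dctpp1, which clears dCTP, 10.9, 27.9 and 24.6. The lower gene was Rrm2b, a p53-regulated counterpart of Rrm2, with 8.17, 4.01 and 4.31 FPKM, named after its value was seen. Between Ti+Se-Met and Ti, 25 of the 30 genes were below 0 and 4 above, with a median of -0.21, where 6804 of all 11137 genes were below 0 and the median was -0.06.

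Genes of mitosis, the phase after replication, made a different pattern. Of 25, 12 (48.0%) were at least 1.5-fold higher in Ti than in CTL and 21 (84.0%) in Ti+Se-Met, with medians of 0.58 and 1.00. Of all genes, 15.5% and 10.4% were. In Ti 4 were below 0, where 4961 of all 11137 genes were. The interval lay below 1 for 3 (32.0% of all genes), Cenpe at 0.746-fold, Cenpf at 0.793-fold and Mki67 at 0.940-fold, named after their values were seen. Between Ti+Se-Met and Ti all 25 were above 0, with a median of 0.42, where 4289 of all 11137 genes were above 0. At least 1.5-fold higher were 8 (32.0%), against 0.844% of all genes. The 0 of 47 genes of the set is near that share of all genes. The interval of the fold lay above 1 for 23 of the 25 (15.6% of all genes), and held 1 for Aurkb and Bub1. Plk1, a mitotic kinase, had 11.1 FPKM in CTL, 26.2 with Ti and 33.7 with Ti+Se-Met. Aurka, a spindle kinase, had 9.25, 20.5 and 26.4 FPKM, and Kif2c, a motor that removes microtubule ends, 4.93, 11.1 and 14.4. Each was lowest in CTL and highest in Ti+Se-Met. With 1 library a condition, the difference between the mitosis genes and the set was not tested.

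**Figure D5:**
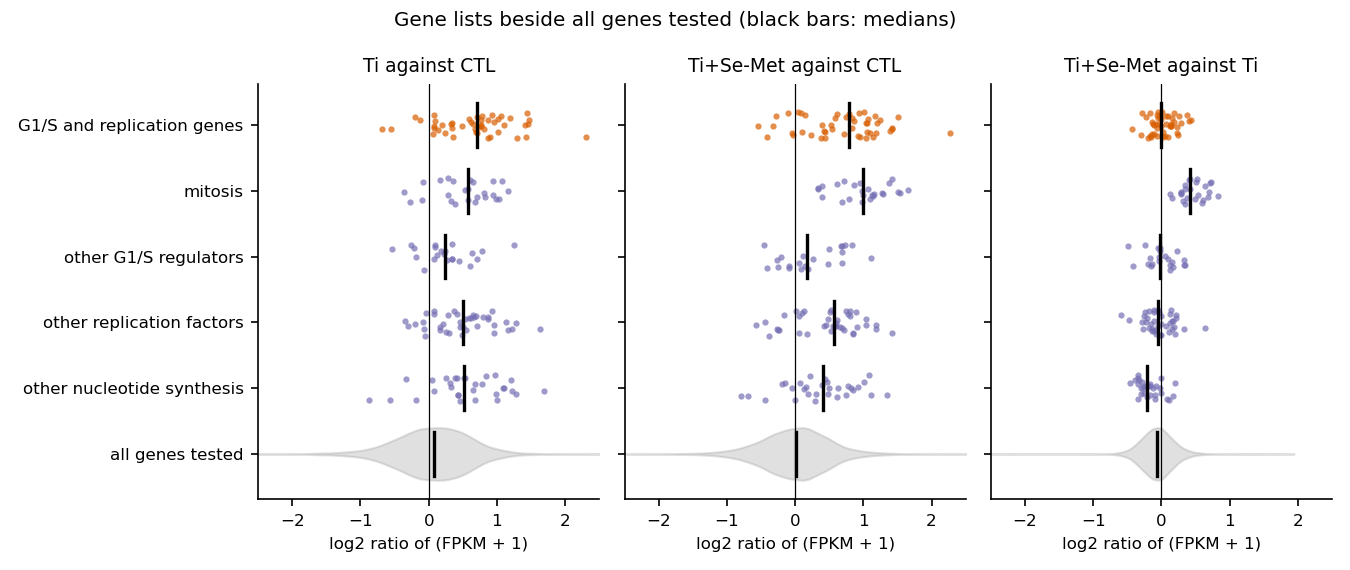
Log2 ratio of FPKM + 1 in each of the 3 comparisons, with a point per gene, black bars for medians and a grey outline for all genes tested, whose tails run past the axis. In Ti+Se-Met against Ti the set has a median of -0.01, the nucleotide synthesis genes one of -0.21 and the mitosis genes one of 0.42.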

How the data were processed

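The 3 RNA-seq libraries of MC3T3-E1 cells, 1 per condition, were grouped by the treatment given in the labels. The authors removed reads with adapters or of low quality, aligned the others with HISAT2, sorted them with SAMtools and counted them per gene with HTSeq. The submitters' processing notes name StringTie and the build mm9. The deposited values are FPKM rounded to 2 decimals, each relative to its own library, with no scaling between libraries stated. Since FPKM are no counts, count models were not applied. Of the value columns, 0 were left without a library.

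The set of genes, the lists and the comparisons were chosen with earlier results of these data known. From the deposited values, log2(FPKM + 1) ratios were computed for 11137 of 15287 genes, those that reached 1 FPKM in 1 library or more. The pseudocount of 1 understates the change of low genes. Differences of 1.5-fold and 2-fold on that scale were counted beside the same count over all genes, with no test. The smallest steps between low values, worth 1 fragment, gave an estimate of depth from 453 genes that have a single transcript of 350 to 1000 bases, less 150 bases each, using GENCODE M21 lengths (GRCm38) joined through RefSeq accessions. In CTL, Ti and Ti+Se-Met, 59.0%, 53.9% and 47.8% of the low values fell on a step, where 20.1%, 20.1% and 17.5% would do so by position alone. The depths lay between 13550000 and 14800000, 14200000 and 14900000, and 9900000 and 10650000 fragments, so the intervals are approximate. Named members are all those at least 1.5-fold from CTL in either library, those of complexes described as a whole and the extremes. From each other list the 3 with the largest absolute log2 ratio between Ti and CTL among genes with a mean of at least 5 FPKM were named, and further genes where a result turns on them. Python 3.11.15, numpy 2.4.6, pandas 2.3.3, scipy 1.17.1 and matplotlib 3.10.9 were used. The steps were tested on simulated data. Coordinates are of RefSeq promoters on GRCm38.p6 and none was converted from mm9.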

Additional observations from a re-analysis of the deposited data

How the results depend on the processing

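Other pseudocounts (0.1, 5), filters (none, or a mean of 5 FPKM) and scalings of the libraries (3) were tried. The counting intervals under other scalings, and the mitosis genes, were added after seeing the data. With a pseudocount of 5, the genes at least 2-fold higher went from 12 to 6 in Ti and from 17 to 5 in Ti+Se-Met against CTL, those at least 1.5-fold higher in Ti from 30 to 19, and the medians to 0.51 and 0.56. With the same sum per library, these were 7, 8 and 19, and the medians 0.50 and 0.62. The genes 1.5-fold lower were then 2 in either comparison with CTL, and the intervals below 1 in Ti were 7. Of all 11137 genes, 185 in Ti and 174 in Ti+Se-Met were at least 2-fold higher on that scale, against 404 and 294 as deposited. All genes were not counted under other pseudocounts, nor at 1.5-fold or by interval under other scalings. Those counts of the set therefore have no share of all genes beside them. Upper-quartile scaling gave a Ti median of 0.59 and 1 gene 1.5-fold lower in Ti+Se-Met. Pseudocount 0.1, median-of-ratios and upper-quartile scaling each gave 2 genes 1.5-fold lower in Ti, Cdkn1b and Rb1. Between Ti+Se-Met and Ti, intervals below 1 numbered 4 under median-of-ratios and 3 under upper-quartile scaling, and the median share of the Ti difference gone was -5.92% and -6.99%, so its sign depends on the scaling. Of 404 alternative values of single genes called at 1.5-fold, 339 moved little or not at all, 65 moved further and 0 turned in sign. That 0 is no check, because no setting could turn such a gene. The filters leave a value unchanged, a pseudocount keeps its sign, and the scalings shift it by less than 1.5-fold. No paired analysis was possible because there was only 1 library for every treatment, and none could be left out. The estimated depth, lowest in Ti+Se-Met, limits low genes such as Orc1.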
